A study of Mus musculus with 12 samples.

Results

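The enzymes that build and sulfate the chondroitin, dermatan and heparan sulfate chains of proteoglycans were followed by RNA-seq in mouse peri-infarct cortex. The set was fixed by symbol from the known roles of the enzymes, at a time when earlier results of these data were known. It holds 36 of the 25238 genes in the count table, all of them found there. Of the 36, 35 had enough reads to be tested in each comparison, and Chst13 did not. Each of 12 libraries came from 1 mouse, 4 labelled control (19, 21, 36 and 38), 4 labelled Veh (2, 6, 8 and 10) and 4 labelled ISP (12, 14, 16 and 18). Veh and ISP mice had a stroke by middle cerebral artery occlusion (MCAo), which for these experiments was a transient occlusion of 45 min in male C57BL/6J mice aged 10 to 12 weeks. Veh mice then received 5% DMSO in saline, although the study's results text speaks of a scrambled peptide. ISP mice received intracellular sigma peptide, a membrane-permeable peptide directed at the chondroitin sulfate receptor PTPσ, at 1 μg/g/day from day 1 after stroke. Brains of both groups were taken at day 14, and cortex near the infarct was punched with a tool of 1 mm. For the control mice the tissue label is the same, but the sources used here give neither a surgery nor a treatment, age or day, and these mice were therefore compared under their label alone.

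Chondroitin, dermatan and heparan sulfate are long sugar chains attached to serines of core proteins through a shared linker of xylose, galactose, galactose and glucuronic acid. Chondroitin chains then grow by alternating N-acetylgalactosamine and glucuronic acid, heparan chains by alternating N-acetylglucosamine and glucuronic acid, and sulfotransferases add sulfate at set positions that decide which proteins can bind. In the injured brain chondroitin sulfate proteoglycans collect around the lesion and limit axon growth, and the phosphatase PTPσ binds both chondroitin and heparan chains. Transcript levels of these enzymes were measured here, and neither enzyme activity nor the chains themselves were.

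Total counts were 21322702 to 29845629 in control, 17442711 to 24706638 in Veh and 19325979 to 28685864 in ISP libraries. Choroid plexus and ependyma markers (8 genes) summed to 1706 CPM (counts scaled to a common library size by TMM) in Veh 6 and 1192 in ISP 18, against 4.46 to 12.2 in the other 10 libraries, where Ttr was at 0 in 6 and Tmem212 in 10. Microglia and macrophage markers (15 genes) summed to 431 to 562 CPM in control, 583 to 1126 in Veh and 699 to 2596 in ISP. The highest sums were those of ISP 14 and ISP 18. At an edgeR adjusted p under 0.1, 14 of the 15 were called higher in ISP against control and 4 in Veh against control. Of all genes, 6.74% and 1.03% were called higher in these comparisons. All 15 had positive fold changes in both, and 14 had an unadjusted edgeR p under 0.05 in Veh against control (16.3% of all genes). Reactive astrocyte markers (10 genes) summed to 79.3 to 88.6, 186 to 784 and 375 to 2972 CPM in control, Veh and ISP. Lcn2 was at 0 in 4 libraries. By the same edgeR threshold 6 of 7 tested were called higher in ISP against control and 3 of 8 in Veh against control. All 7 and all 8 had positive fold changes. Oligodendrocyte markers (12 genes) summed to 3551 to 5349, 3033 to 7531 and 5092 to 12169 CPM. Of the 12, 10 were called higher in ISP against control and 0 in Veh against control. Mural and fibroblast markers (12 genes) summed to 376 CPM in Veh 10 and to 164 to 210 elsewhere. The neuron lists were present in all 12 libraries except for Six3, a striatal marker at 0 in 8. Against control, 2 of 10 GABAergic interneuron markers and 0 of 10 upper-layer markers were called lower in ISP (3.42% of all genes). In each of these lists 8 of 10 had a negative fold change, and the upper-layer median log2 fold change was -0.46. For ISP over Veh edgeR called 0 neuron markers and 0% of all genes. DESeq2, the test of the study, called 2 upper-layer, 3 GABAergic and 1 striatal marker, all lower in ISP (2.51% of all genes called). Medians were -0.64 for upper-layer and 0.36 for deep-layer markers. At an unadjusted edgeR p under 0.05 (15.3% of all genes), 6 of 10 upper-layer and 5 of 10 GABAergic markers were lower. There 3 of 10 deep-layer markers were higher. Higher at that threshold were also 8 of 10 reactive astrocyte, 11 of 15 microglia and macrophage and 9 of 12 oligodendrocyte markers, with 0 lower. In a tissue punch, fewer cells of a type and less RNA per cell cannot be told apart.

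Per kb of annotated exon, the enzymes spanned a wide range of levels. B3gat3 was highest, with a mean of 74.5 CPM per kb over the 12 libraries, followed by Hs3st2 at 38.6, Extl3 at 34.7, Chpf at 30.3, Sulf2 at 26.9 and Hs3st4 at 24.9. At the lower end stood Chst14 at 0.977, Chst7 at 0.915, Dse at 0.806, Chst3 at 0.519 and Chst13 at 0.00476 CPM per kb. Chst13, a chondroitin 4-O-sulfotransferase, had 2 reads in Veh 10 and 0 in each of the other 11 libraries, where a count of 0 allows up to 3 reads. Summed per kb over role groups, the 5 linker enzymes reached 99.0 ± 14.0 in control, 102 ± 10.8 in Veh and 87.3 ± 2.83 CPM per kb in ISP (mean ± SD, n = 4). The chondroitin and dermatan enzymes reached 94.5 ± 3.27, 96.8 ± 3.12 and 90.2 ± 3.36, and the heparan enzymes 214 ± 13.1, 199 ± 21.1 and 209 ± 11.4. The linker sum lay lower in every ISP library (84.3 to 91.1) than in every Veh library (94.8 to 118). Control overlapped both (83.6 to 113). B3gat3 held most of the linker sum, with means of 76.7, 80.1 and 66.6 CPM per kb in control, Veh and ISP. It was not called by edgeR in any comparison. The other sums overlapped between all groups.

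**Figure D1:**
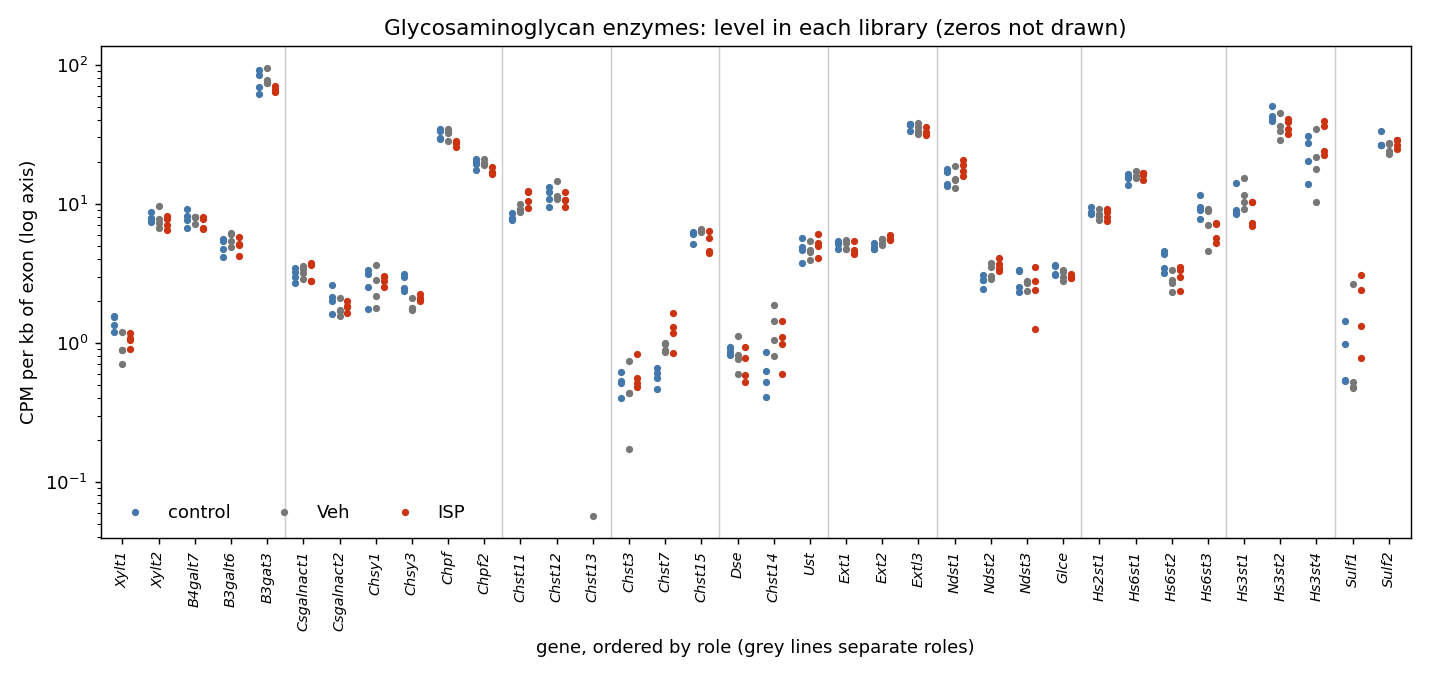
Level of each of the 36 enzymes in CPM per kb of exon (log axis), 1 point per library, coloured by group, with genes in order of role and values of 0 not drawn. B3gat3 sits highest and Chst3, Chst7, Dse and Chst14 lie near or below 1 CPM per kb, while Chst13 has a single point.

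Few of the enzymes differed between groups by edgeR's quasi-likelihood test at a Benjamini-Hochberg adjusted p under 0.1 over all genes tested. Veh and control differed in 1 of 35 enzymes, lower in Veh (Chsy3), where 2.23% of all genes were called, 1.03% higher and 1.2% lower. ISP and control differed in 5 of 35, with 3 higher in ISP (Chst11, Chst7 and Ndst2) and 2 lower (Chsy3 and Hs6st3), where 10.2% of all genes were called, 6.74% higher and 3.42% lower. ISP and Veh differed in 0 of 35, where 0% of all genes were called. These comparisons share their control, Veh or ISP libraries and are not independent of each other.

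At an unadjusted edgeR p under 0.05, 6 enzymes separated Veh from control (16.3% of all genes did), 12 separated ISP from control (22.3%) and 6 separated ISP from Veh (15.3%). DESeq2, the test named in the study's methods, called 4 enzymes for Veh with control (6.46% of all genes), 7 for ISP with control (13.7%) and 0 for ISP with Veh (2.51%). limma-voom called 1 (2.26% of all genes), 4 (10.6%) and 0 (0%) in the same order. Groups did not overlap in CPM for 3 enzymes between Veh and control (9.67% of all genes), 8 between ISP and control (11.9%) and 2 between ISP and Veh (6.81%). The median log2 fold change of the 35 was -0.01 for Veh with control, -0.12 for ISP with control and 0.00 for ISP with Veh, where all tested genes had medians of 0.02, -0.01 and 0.02. Enzymes with a positive and a negative fold change numbered 16 and 19, 14 and 21, and 18 and 17 in the same order.

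**Figure D2:**
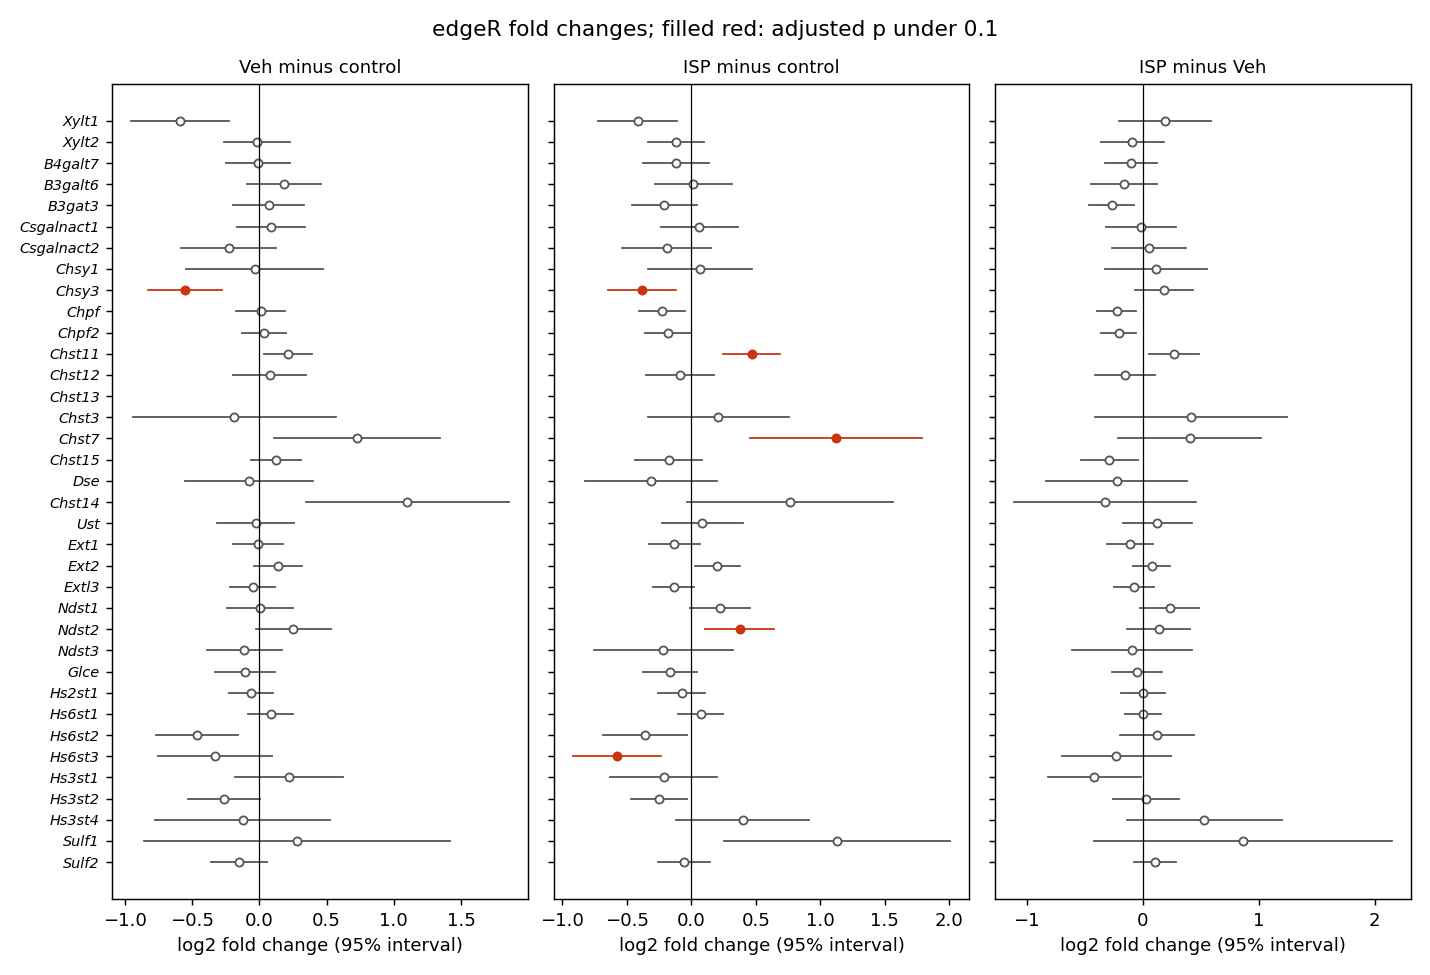
Log2 fold change of each enzyme with its 95% interval in the 3 comparisons, in order of role, with filled red points for an edgeR adjusted p under 0.1. The 1 filled point for Veh minus control is Chsy3, the 5 for ISP minus control are Chsy3, Chst11, Chst7, Ndst2 and Hs6st3, and none is filled for ISP minus Veh; the horizontal scale differs between panels.

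Of the 5 linker enzymes none was called by edgeR in any comparison. Xylt1 and Xylt2 attach the xylose that starts every chain, B4galt7 and B3galt6 add the galactoses, and B3gat3 adds the glucuronic acid that completes the linker. B3gat3 had 237, 160, 178 and 219 CPM in control 19, 21, 36 and 38, 244, 192, 201 and 192 in Veh 2, 6, 8 and 10, and 168, 174, 182 and 165 in ISP 12, 14, 16 and 18. All 4 ISP libraries lay below all 4 Veh libraries, and the control libraries overlapped both. The log2 fold change of ISP over Veh was -0.27 (95% interval -0.459 to -0.076), with an edgeR adjusted p of 0.266, and it became -0.07 when GC content and exon length were fitted as offsets.

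Xylt1 had 14.7, 15, 13 and 11.5 CPM in control, 6.77, 11.6, 8.57 and 8.58 in Veh and 8.66, 10.2, 10.5 and 11.4 in ISP libraries. Control lay above all ISP libraries, and Veh 6 reached the lowest control value. Veh against control gave a log2 fold change of -0.59 (95% interval -0.954 to -0.228, edgeR adjusted p = 0.117, DESeq2 adjusted p = 0.0332), and ISP against control gave -0.41 (-0.719 to -0.106, edgeR adjusted p = 0.111, DESeq2 adjusted p = 0.0800). DESeq2 thus called both and edgeR neither, although without Veh 6 the Veh value was -0.75 with an edgeR adjusted p of 0.0663. ISP against Veh gave 0.19 (-0.200 to 0.586). Xylt2, B4galt7 and B3galt6 had group means of 29.4 to 31.8, 21.1 to 22.9 and 15.8 to 17.9 CPM and log2 fold changes between -0.16 and 0.19.

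Among the 6 enzymes that start and extend chondroitin chains, Chsy3 was lower in both stroke groups than in control. Chsy3 is a chondroitin synthase that works with the cofactors Chpf and Chpf2, and it is annotated at chr18:59175401-59535999 on the plus strand of mm10. It had 17.9, 17.2, 22.7 and 21.4 CPM in control, 12.9, 15.2, 12.9 and 12.5 in Veh and 15.3, 15, 16.3 and 14.3 in ISP libraries. Every Veh and every ISP library lay below every control library, and the ISP and Veh libraries overlapped. The log2 fold change was -0.56 (SE 0.127, 95% interval -0.829 to -0.281, edgeR adjusted p = 0.0838) for Veh and -0.38 (SE 0.119, -0.641 to -0.121, edgeR adjusted p = 0.0891) for ISP, and 0.19 (-0.067 to 0.437, edgeR adjusted p = 0.452) for ISP over Veh.

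Both calls for Chsy3 stood close to the threshold, and single libraries decided them. For Veh the edgeR adjusted p was 0.155, 0.207 and 0.145 without control 21, 36 and 38, and 0.151, 0.123 and 0.140 without Veh 2, 8 and 10. For ISP it was 0.108, 0.214 and 0.212 without control 19, 36 and 38, and 0.128, 0.195 and 0.196 without ISP 12, 14 and 18. The fold changes themselves stayed between -0.63 and -0.48 for Veh and between -0.45 and -0.31 for ISP over the alternatives tried.

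The other 5 were not called by edgeR in the 3 comparisons. Chpf, a polymerizing cofactor, had 134, 114, 114 and 129 CPM in control, 133, 124, 126 and 108 in Veh and 107, 105, 109 and 99.2 in ISP libraries. All 4 ISP libraries lay below all control libraries, and Veh 10 fell within the ISP range. Its log2 fold change was -0.22 against Veh (95% interval -0.394 to -0.054, edgeR adjusted p = 0.271) and -0.22 against control (-0.401 to -0.047, edgeR adjusted p = 0.130, DESeq2 adjusted p = 0.0906), and it was 0.01 for Veh over control (-0.173 to 0.193). With the GC content and length offsets the value against Veh was -0.14. Against control Chpf passed the edgeR threshold with those offsets (adjusted p = 0.0936) and without control 21 (0.0969).

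Chpf2, a paralog of Chpf, had 111, 97.2, 117 and 108 CPM in control, 110, 117, 108 and 107 in Veh and 103, 91.6, 93.0 and 95.2 in ISP libraries. The ISP and Veh libraries did not overlap, and control 21 fell within the ISP range. ISP over Veh was -0.21 on the log2 scale (95% interval -0.357 to -0.054, edgeR adjusted p = 0.267) and -0.125 with the GC content and length offsets. Exons of other annotated genes cover 44.1% of the Chpf2 exons, and the protein-coding gene among them is Smarcd3 on the opposite strand. The library kit does not mark strand, so reads of Chpf2 and Smarcd3 may be mixed. Csgalnact1 and Csgalnact2, which add the N-acetylgalactosamine that commits a linker to chondroitin, and the synthase Chsy1 had group means of 15.8 to 16.6, 9.60 to 11.4 and 10.8 to 11.8 CPM.

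The chondroitin sulfotransferases held 2 of the 3 enzymes that were higher in ISP than in control. Chst11, which adds sulfate to the 4-O position of N-acetylgalactosamine, had 47.7, 42.1, 43.9 and 43.1 CPM in control, 51.0, 49.7, 48.0 and 54.8 in Veh and 67.3, 68.0, 52.0 and 57.9 in ISP libraries. Every ISP library and every Veh library lay above every control library, and Veh 10 lay above ISP 16. ISP was 1.38-fold control (log2 fold change 0.47, SE 0.101, 95% interval 0.250 to 0.688, edgeR adjusted p = 0.0293), and leaving out any 1 library kept this call. Without ISP 14 and ISP 18, the libraries with the most microglia and reactive astrocyte markers, the log2 fold change was 0.44 with an edgeR adjusted p of 0.224 on 2 ISP libraries. Veh over control was 0.21 (0.034 to 0.388, edgeR adjusted p = 0.219) and ISP over Veh 0.27 (0.055 to 0.483, edgeR adjusted p = 0.277).

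Chst7, which adds sulfate to the 6-O position, had 1.03, 1.33, 1.44 and 1.23 CPM in control, 1.90, 1.97, 2.18 and 2.22 in Veh and 1.85, 2.88, 2.61 and 3.60 in ISP libraries. These values rest on 26 to 34 reads in control, 32 to 49 in Veh and 36 to 106 in ISP libraries. Every Veh and ISP library lay above every control library, and the highest were ISP 18 and ISP 14, which were also the 2 libraries highest in microglia and macrophage markers. ISP was 2.18-fold control (log2 fold change 1.12, SE 0.307, 95% interval 0.454 to 1.791, edgeR adjusted p = 0.0580). Veh over control was 0.73 (0.109 to 1.342, edgeR adjusted p = 0.225) and ISP over Veh 0.41 (-0.210 to 1.024, edgeR adjusted p = 0.501). The part of microglia, reactive astrocytes and oligodendrocytes in the levels of Chst11 and Chst7 was not tested.

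The call for Chst7 was lost without control 19, 36 or 38 (edgeR adjusted p = 0.139, 0.112 and 0.148) and without ISP 14 or ISP 18 (0.154 and 0.167). Without both ISP 14 and ISP 18 its log2 fold change was 0.83 with an edgeR adjusted p of 0.491.

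The other chondroitin sulfotransferases were not called. Chst12, the 4-O enzyme of highest level per kb, had 28.7, 22.5, 25.6 and 31.0 CPM in control, 34.4, 25.4, 26.8 and 26.6 in Veh and 25.2, 22.4, 28.9 and 25.1 in ISP libraries. Veh 2 stood above all others, the 3 groups overlapped, and ISP over control was -0.09 (95% interval -0.351 to 0.174). Chst15, which adds a 6-O sulfate to chains already sulfated at 4-O and makes the chondroitin sulfate E unit, had 34.7, 42.7, 41.4 and 41.2 CPM in control, 44.4, 43.0, 42.1 and 43.8 in Veh and 42.7, 30.1, 38.2 and 31.1 in ISP libraries. ISP 14 and ISP 18 were lowest, ISP 12 fell within the Veh range, and ISP over Veh was -0.29 (-0.533 to -0.043, edgeR adjusted p = 0.284). Without ISP 14 and ISP 18 that value was -0.10. Chst3, the main chondroitin 6-O-sulfotransferase, was low, with 1.13 to 5.36 CPM, and ISP over Veh was 0.42 with an interval of -0.413 to 1.246.

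Summed per kb, the 4-O enzymes Chst11, Chst12 and Chst13 reached 19.4 ± 1.81 in control, 21.2 ± 1.85 in Veh and 21.9 ± 0.742 CPM per kb in ISP (mean ± SD, n = 4). Every ISP library (21.1 to 22.9) lay above every control library (17.1 to 20.9), and Veh overlapped both (19.7 to 23.8). The 6-O enzymes Chst3, Chst7 and Chst15 reached 7.01 ± 0.676, 7.79 ± 0.196 and 7.10 ± 0.569, and every Veh library (7.61 to 8.00) lay above every control library (6.01 to 7.45) while ISP overlapped both. Their ratio was 3.46, 2.30, 2.54 and 2.92 in control, 3.13, 2.47, 2.62 and 2.68 in Veh and 2.99, 3.45, 2.94 and 2.99 in ISP libraries. The control libraries spanned the range of both other groups, and the ISP group mean of 3.09 ± 0.239 lay within the control range. Chst15 held most of the 6-O sum, with means of 5.92, 6.41 and 5.26 CPM per kb in control, Veh and ISP. The ratio thus mainly set Chst11 and Chst12 beside Chst15, which acts on chains already sulfated at 4-O. The ratio counts transcripts only and is a description.

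**Figure D3:**
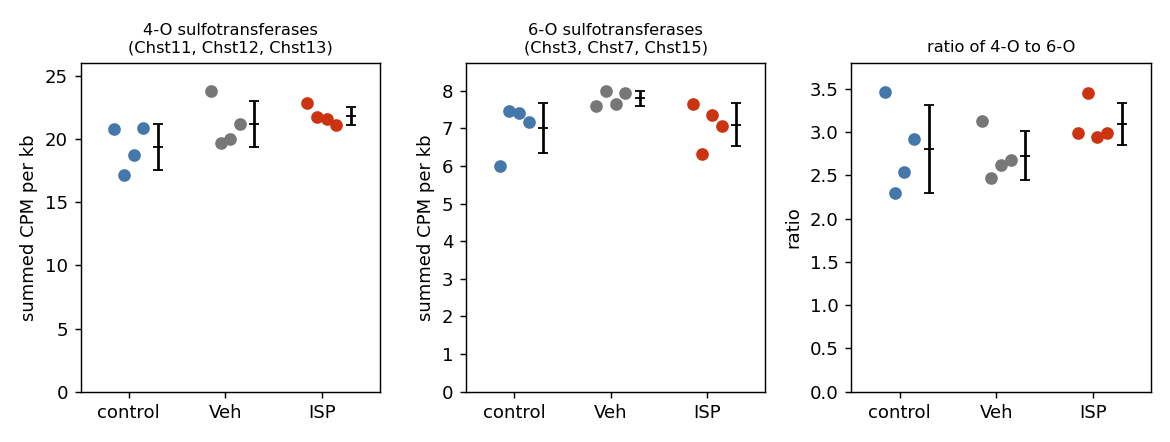
Summed CPM per kb of the 4-O (left) and 6-O (middle) chondroitin sulfotransferases and their ratio (right) in each library, with bars for the mean and SD of 4 mice. The ratio in control libraries runs from 2.30 to 3.46 and covers all ISP values and all Veh values.

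Dermatan sulfate differs from chondroitin sulfate by iduronic acid, made by the epimerase Dse, and Chst14 then adds 4-O sulfate, while Ust adds 2-O sulfate to the uronic acid. Chst14 had 1.10, 1.80, 1.32 and 0.852 CPM in control, 3.03, 2.21, 1.68 and 3.91 in Veh and 2.06, 2.30, 1.25 and 2.98 in ISP libraries, from 18 to 88 reads. Veh 10, the library with the most mural and fibroblast markers, was highest, and Veh 8 lay below control 21. Veh over control was 1.10 on the log2 scale (95% interval 0.344 to 1.856), with an edgeR adjusted p of 0.151 and a DESeq2 adjusted p of 0.0713. The part of mural cells and fibroblasts in it was not tested. Ust, of highest level per kb in this role, had 17.5, 26.4, 21.5 and 22.7 CPM in control, 20.8, 21.6, 25.0 and 18.2 in Veh and 27.9, 24.1, 22.9 and 18.8 in ISP libraries, and the 3 groups overlapped. Dse had 2.61 to 5.61 CPM, and its 3 log2 fold changes lay between -0.31 and -0.08.

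Heparan chains are extended by the copolymerase of Ext1 and Ext2 after Extl3 adds the N-acetylglucosamine that commits the linker to heparan. Extl3 had 224, 227, 202 and 226 CPM in control, 201, 192, 232 and 217 in Veh and 195, 200, 216 and 191 in ISP libraries. The 3 groups overlapped, and ISP over Veh was -0.07 (95% interval -0.245 to 0.099). Ext2 had 34.4 to 38.5 CPM in control, 37.0 to 40.9 in Veh and 40.0 to 44.0 in ISP libraries, so that ISP and control did not overlap, with a log2 fold change of 0.20 (0.029 to 0.378, edgeR adjusted p = 0.159). Ext1 had 35.2 to 44.3 CPM, and its log2 fold change of ISP over control was -0.13 (-0.329 to 0.067).

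Of the 4 enzymes of N-sulfation and epimerization, Ndst2 was higher in ISP than in control. The Ndst enzymes replace the acetyl group of N-acetylglucosamine by sulfate, the step that opens the chain to further sulfation, and Glce turns glucuronic into iduronic acid. Ndst2 had 11, 12.9, 13.9 and 12.9 CPM in control, 13.2, 13.8, 16.1 and 16.9 in Veh and 15.8, 16.9, 14.9 and 18.4 in ISP libraries. Every ISP library lay above every control library, and the Veh libraries overlapped both groups. ISP was 1.30-fold control (log2 fold change 0.38, SE 0.122, 95% interval 0.111 to 0.643, edgeR adjusted p = 0.0971). Veh over control was 0.25 (-0.028 to 0.531) and ISP over Veh 0.14 (-0.138 to 0.412).

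Ndst2 stood at the edge of the threshold. The edgeR adjusted p was 0.214, 0.130, 0.137 and 0.198 without control 19, 21, 36 and 38, and 0.117, 0.212 and 0.229 without ISP 12, 14 and 18. It was 0.124 with no filter on low counts, and limma-voom gave 0.104. Without both ISP 14 and ISP 18 the log2 fold change was 0.27, with an edgeR adjusted p of 0.546.

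Ndst1, the main N-deacetylase and N-sulfotransferase of most tissues, had the highest level per kb of these 4, with 112, 146, 139 and 115 CPM in control, 126, 154, 123 and 108 in Veh and 156, 143, 131 and 170 in ISP libraries. ISP 18, ISP 12 and Veh 6 were highest and the groups overlapped, with a log2 fold change of 0.23 for ISP over Veh (95% interval -0.020 to 0.486, edgeR adjusted p = 0.358). Ndst3 had 12.3 CPM in ISP 18 and 23.0 to 34.5 in the other 11 libraries. Glce had 19.0 to 24.8 CPM, and ISP over Veh was -0.04 (-0.260 to 0.171).

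The 2-O and 6-O sulfotransferases of heparan held 1 enzyme that differed, Hs6st3, lower in ISP than in control. Hs2st1 sulfates iduronic acid at 2-O, and Hs6st1, Hs6st2 and Hs6st3 sulfate glucosamine at 6-O. Hs6st3 had 15.5, 19.6, 13.3 and 16.3 CPM in control, 7.83, 12.1, 15.2 and 15.6 in Veh and 9.69, 9, 12.3 and 12.4 in ISP libraries. Every ISP library lay below every control library, and the Veh libraries spanned values below, within and above those of ISP. ISP was 0.671 of control (log2 fold change -0.58, SE 0.157, 95% interval -0.918 to -0.232, edgeR adjusted p = 0.0582), Veh over control was -0.33 (-0.758 to 0.090) and ISP over Veh -0.23 (-0.693 to 0.242). These last 2 values moved with single libraries, the former to -0.17 without Veh 2, and the latter to -0.40, -0.13, -0.12 and -0.145 without Veh 2, Veh 8, Veh 10 and ISP 14 and to -0.09 with the GC content and length offsets.

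The call for Hs6st3 was lost with GC content and exon length as offsets (log2 fold change -0.52, edgeR adjusted p = 0.101). It was also lost without control 19, 21 or 38 (0.103, 0.115 and 0.137), without ISP 12 or ISP 14 (0.102 and 0.161), and without both ISP 14 and ISP 18 (0.310).

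Hs6st2 had 24.9, 34.1, 36.0 and 26.9 CPM in control, 18.2, 26.2, 22 and 20.9 in Veh and 26.2, 27.4, 23.4 and 18.4 in ISP libraries. Veh 6 alone among the Veh libraries lay within the control range, and Veh over control was -0.47 (95% interval -0.773 to -0.163), with an edgeR adjusted p of 0.137 and a DESeq2 adjusted p of 0.0488. It passed the edgeR threshold without Veh 6 (-0.57, adjusted p = 0.0904) and without control 19 (-0.56, adjusted p = 0.0844). Hs6st1, of highest level per kb in this role, had 84.3, 90.3, 75.7 and 87.1 CPM in control, 87.8, 86.9, 84.6 and 95.5 in Veh and 89.1, 92.4, 91.8 and 82.0 in ISP libraries. The groups overlapped, and ISP over Veh was 0.00 with an interval of -0.156 to 0.160. Hs2st1 also had 0.00, with an interval of -0.187 to 0.191, and ranged from 62.2 to 78.3 CPM.

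**Figure D4:**
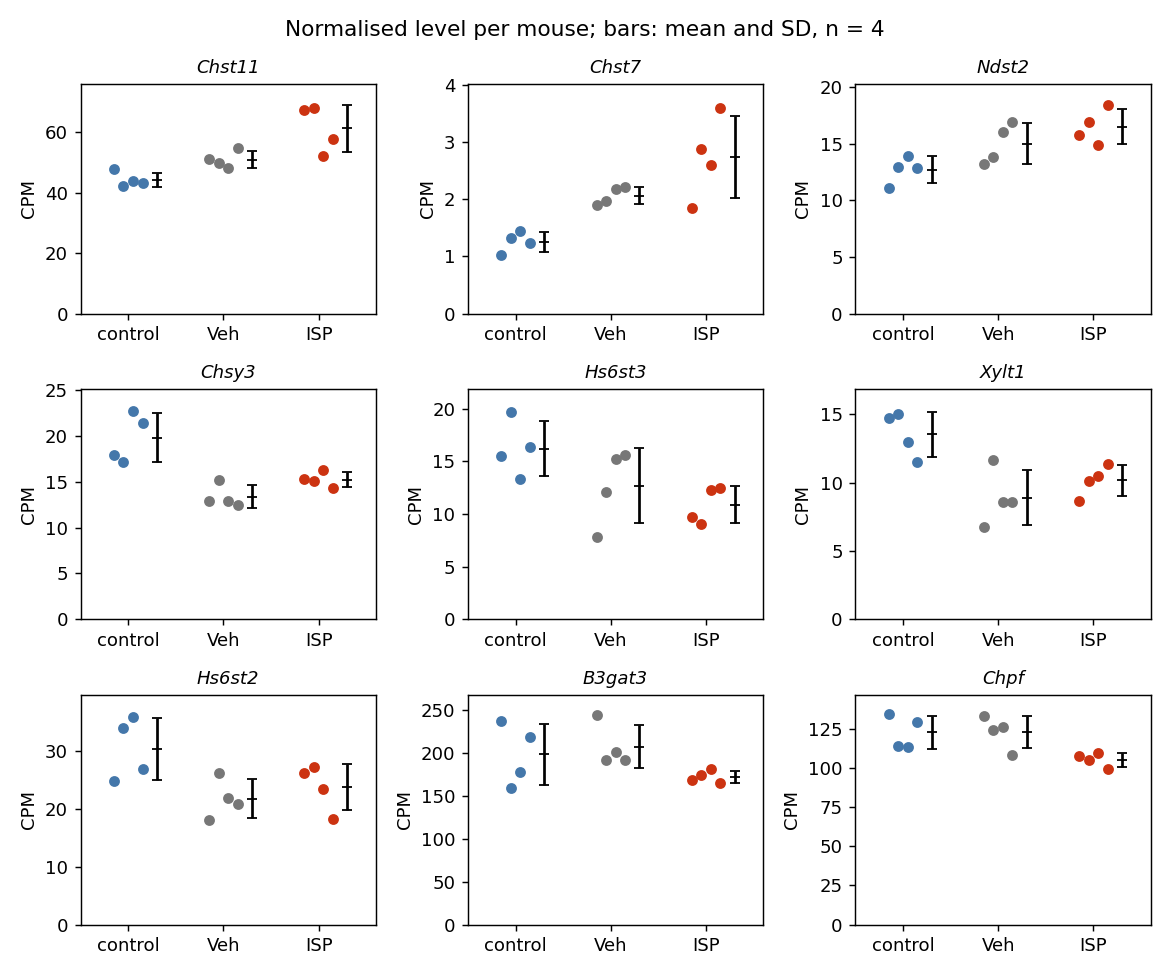
CPM per mouse for 9 enzymes, with bars for the mean and SD of 4 mice in each group and vertical axes from 0. Chst11, Chst7 and Ndst2 are higher in every ISP than in every control mouse, Chsy3, Hs6st3 and Xylt1 lower, and the ISP values of B3gat3 lie below all Veh values while Hs6st2 and Chpf overlap between Veh and ISP.

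The 3-O-sulfotransferases act last on heparan chains and make rare motifs such as the antithrombin site, which Hs3st1 makes. Hs3st2, of highest level per kb, had 130, 120, 153 and 125 CPM in control, 101, 138, 110 and 88.2 in Veh and 125, 106, 118 and 97.7 in ISP libraries. The groups overlapped, with log2 fold changes of -0.26 for Veh over control (95% interval -0.531 to 0.004; -0.40 and edgeR adjusted p = 0.0995 without Veh 6) and -0.25 for ISP over control (-0.465 to -0.029, edgeR adjusted p = 0.171). Hs3st4 had 44.6, 87.9, 98.3 and 64.3 CPM in control, 56.6, 110, 68.8 and 33.0 in Veh and 116, 71.6, 76.1 and 125 in ISP libraries. ISP 18, ISP 12, Veh 6 and control 36 were highest, and the same 4 libraries had the highest deep-layer neuron marker sums, at 606, 678, 629 and 685 CPM against 348 to 596 in the other 8, with all 10 markers in the table above 0. ISP over Veh was 0.53 (-0.137 to 1.200, edgeR adjusted p = 0.415), 0.87 without Veh 6, 0.30 without Veh 10 and 0.73 without Veh 6 and ISP 18, and the part of deep-layer neurons was not tested. Hs3st1 had 31.2 CPM in control 19 and 34.3 in Veh 8, against 15.5 to 25.7 elsewhere, and ISP over Veh was -0.42 (-0.816 to -0.018, edgeR adjusted p = 0.312).

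Sulf1 and Sulf2 are secreted sulfatases that remove 6-O sulfate from finished heparan chains. Sulf2, of highest level per kb, had 155, 155, 196 and 156 CPM in control, 140, 161, 157 and 134 in Veh and 168, 168, 146 and 156 in ISP libraries. Control 36 was highest and the groups overlapped, with 0.11 for ISP over Veh (95% interval -0.076 to 0.290). Sulf1 had 6.11, 11, 16.1 and 6.01 CPM in control, 5.88, 30.1, 5.35 and 5.42 in Veh and 15, 27.1, 8.83 and 34.5 in ISP libraries. ISP 18 and Veh 6, the libraries with choroid plexus markers, were highest, and ISP 14, with 12.2 CPM of those markers, followed.

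ISP over Veh was 0.86 for Sulf1 on the log2 scale (95% interval -0.419 to 2.146, edgeR adjusted p = 0.494), 1.95 without Veh 6, 1.61 without Veh 6 and ISP 18 (edgeR adjusted p = 0.129) and 0.02 without ISP 14 and ISP 18. ISP over control was 1.13 (0.256 to 2.008, edgeR adjusted p = 0.123) and passed the threshold without control 36 or ISP 16, at 1.47 and 1.38, and with the GC content and length offsets, at 1.26. The part of choroid plexus and ependyma in Sulf1 was not tested.

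**Figure D5:**
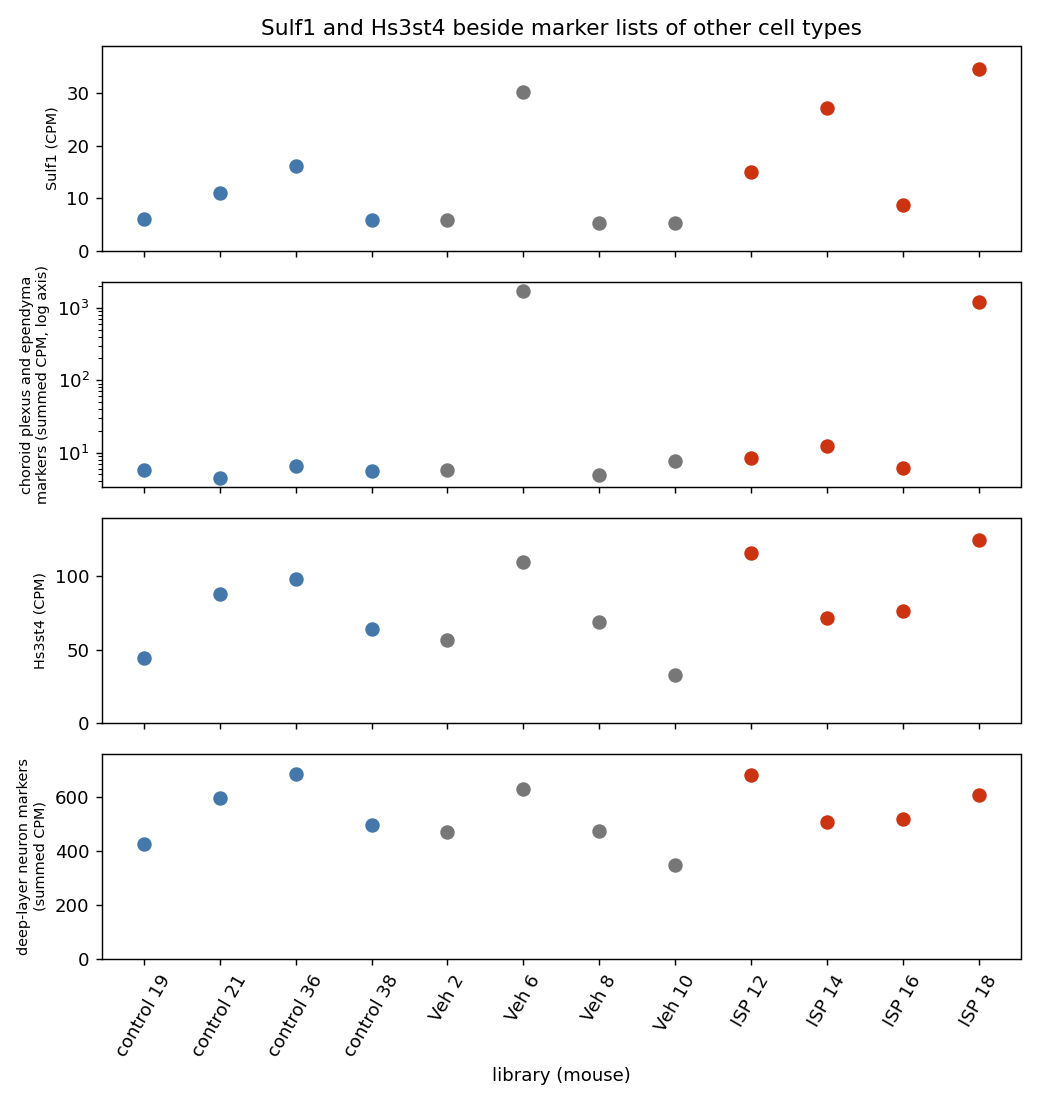
From top to bottom, Sulf1 (CPM), summed choroid plexus and ependyma markers (CPM, log axis), Hs3st4 (CPM) and summed deep-layer neuron markers (CPM) in each of the 12 libraries, coloured by group. Veh 6 and ISP 18 are highest in both upper panels, and ISP 18, ISP 12, Veh 6 and control 36 are highest in both lower panels.

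Promoters are shown for 4 of the 5 enzymes called between ISP and control, Chst11, Chst7 and Ndst2, which were higher in ISP, and Hs6st3, which was lower. The promoter of Chsy3, the other lower one, is not shown. Each is the 250 bases before the RefSeq start on GRCm38.p6, and windows were at hand for 29 of the 36 enzymes. Capitals mark GC boxes (GGGCGG or CCGCCC) and CCAAT boxes (CCAAT or ATTGG), and TATAAA and TTTATA were searched as well, so that both strands were read. Over 32851 RefSeq windows of the same length, 32.7% held a GC box, 33.8% a CCAAT box and 12.4% a TATAAA or TTTATA, and the median GC content was 52.4%.
Chst11: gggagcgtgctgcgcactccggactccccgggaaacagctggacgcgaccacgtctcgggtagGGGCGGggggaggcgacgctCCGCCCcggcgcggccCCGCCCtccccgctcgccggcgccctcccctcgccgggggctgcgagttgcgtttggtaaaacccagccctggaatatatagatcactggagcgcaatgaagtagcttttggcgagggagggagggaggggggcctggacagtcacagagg
Chst7: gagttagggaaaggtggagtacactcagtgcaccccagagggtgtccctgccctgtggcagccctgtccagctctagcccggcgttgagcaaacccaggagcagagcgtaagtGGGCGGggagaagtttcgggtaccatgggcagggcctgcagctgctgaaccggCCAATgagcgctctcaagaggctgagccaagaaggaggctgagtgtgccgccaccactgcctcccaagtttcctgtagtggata
Ndst2: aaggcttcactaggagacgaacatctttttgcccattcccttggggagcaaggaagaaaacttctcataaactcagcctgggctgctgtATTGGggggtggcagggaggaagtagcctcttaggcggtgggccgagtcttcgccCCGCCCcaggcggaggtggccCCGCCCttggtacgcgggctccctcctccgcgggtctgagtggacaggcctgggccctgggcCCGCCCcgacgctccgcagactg
Hs6st3: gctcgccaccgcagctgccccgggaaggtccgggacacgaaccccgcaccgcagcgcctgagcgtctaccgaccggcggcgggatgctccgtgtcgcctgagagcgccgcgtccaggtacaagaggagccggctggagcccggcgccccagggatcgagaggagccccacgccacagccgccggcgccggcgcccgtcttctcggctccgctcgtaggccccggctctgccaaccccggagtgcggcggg
The Chst11 window (chr10:82985247-82985496, plus strand) had 70% GC and 3 GC boxes. The Chst7 window (chrX:20059320-20059569, plus strand) had 61.2% GC, 1 GC box and 1 CCAAT box. The Ndst2 window (chr14:20734563-20734812, minus strand) had 64.8% GC, 3 GC boxes and 1 CCAAT box. The Hs6st3 window (chr14:119138015-119138264, plus strand) had 76% GC and none of these letters, and none of the 4 held TATAAA or TTTATA. A match is a description of the letters and not a measured binding site.

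Other genes of the same pathway were described from 3 lists chosen by function, without the 36. Of 12 other synthesis enzymes, 9 were tested and 1 was called (2.23% of all genes in that comparison), Pxylp1, the phosphatase that removes phosphate from the linker xylose. Pxylp1 had 10.4 CPM in control, 14.9 in Veh and 11.1 in ISP as group means, and rose in Veh against control by 0.52 on the log2 scale (SE 0.135, edgeR adjusted p = 0.0964). Of 17 genes of precursor supply (16 tested against control), which make sugar nucleotides and the sulfate donor and carry them to the Golgi, 0 were called in Veh against control and 2 rose in ISP against control, where 10.2% of all genes were called. These were Ugp2, which makes UDP-glucose (71.3 to 85.8 CPM, 0.26, SE 0.0761, edgeR adjusted p = 0.0676), and Cant1, a Golgi nucleotidase (50.3 to 59.1 CPM, 0.23, SE 0.0739, edgeR adjusted p = 0.0924).

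Of 19 genes of lysosomal and extracellular chain degradation, 17 were tested, and 0 were called lower in any comparison. Of all genes, edgeR called 1.2% lower in Veh against control, 3.42% in ISP against control and 0% in ISP against Veh. Fold changes were negative for 4, 2 and 2 of the 17 in the same order. The genes of the list named here rose in ISP against control. Hexa, a hexosaminidase subunit, had means of 53.9 CPM in control, 62.9 in Veh and 90.9 in ISP and rose by 0.75 on the log2 scale (SE 0.172, edgeR adjusted p = 0.0349). Gusb, a glucuronidase, rose from 12.3 to 25.7 CPM, by 1.07 (SE 0.284, edgeR adjusted p = 0.0537), and Arsg, a glucosamine sulfatase of heparan, from 13.6 to 25.9 CPM, by 0.93 (SE 0.297, edgeR adjusted p = 0.0922). The list's median log2 fold change was 0.20 for Veh over control, 0.42 for ISP over control and 0.17 for ISP over Veh, beside 0.02, -0.01 and 0.02 over all genes tested. Its summed level was 912 to 1021 CPM in control, 907 to 1083 in Veh and 961 to 1424 in ISP, highest in ISP 14 and ISP 18, the libraries highest in microglia and macrophage markers. The part of those cells was not tested. None of the 3 lists held a gene called for ISP against Veh by edgeR or DESeq2, which called 0% and 2.51% of all genes. At an unadjusted edgeR p under 0.05 the lists held 1 of 9, 3 of 17 and 2 of 17 tested genes, beside 15.3% of all genes.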

How the data were processed

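Peri-infarct cortex RNA of 12 mice was profiled as poly(A) libraries. The authors mapped the reads to mm10 (HISAT2), counted reads over GENCODE genes (HTSeq, default parameters) and deposited raw counts. The library kit described does not mark strand, and program versions are not given in the sources used here. Gene positions and exon lengths came from GENCODE M21, which held 24365 of the 25238 symbols, with 342 more matched through RefSeq synonyms. For each comparison edgeR 4.0.16 (R 4.3.3; filterByExpr, TMM, glmQLFTest) was run on the 8 libraries concerned, and adjusted p-values (Benjamini-Hochberg, all genes tested) were called under 0.1. The scripts were tested on simulated data. Values are TMM-normalized CPM, with intervals at 95%. Nothing in the labels pairs mice or gives a batch. The 18 pairs of libraries within groups differed by a chi-square per degree of freedom of 11.1 to 50.9, far above sampling noise.

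Members and lists were chosen with earlier results of these data known. Values in every library are given for enzymes called in any comparison, for the 3 of smallest p on either side when ISP is set against Veh, and for the highest per kb in each role, and of each pathway list up to 4 genes called with the smallest p in Veh with control or ISP with Veh are named. Xylt1, Hs6st2, Chst14 and Sulf1, and the list genes called in ISP against control, were added after their values were seen. Chst15 falls under the rule as the chondroitin 6-O enzyme of highest level per kb. Alternatives were DESeq2 1.42.0 size factors or its Wald test, no filter, at least 10 counts in every library, limma 3.58.1 (voom, quality weights), a fit of all 12 libraries, GC content and length offsets (loess span 0.3), an adjusted p under 0.05, a log2 fold change beyond 0.5, and each library left out. Leaving out ISP 14 and ISP 18, Veh 6 and Veh 10, or Veh 6 and ISP 18 together was chosen after seeing the data. Of exons, 17.9% of Chst15, 44.1% of Chpf2 and 2.62% of Sulf2 overlap other genes. So do 9.05% of Hs3st2, 8.07% of Hs6st1, 4.08% of Hs3st4, 3.8% of B4galt7, 3.54% of Chsy1 and 1.13% of Glce. No protein measurements were analysed here. Some genes of the chain degradation list that the rule takes or that passed the test are not reported here.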

Additional observations from a re-analysis of the deposited data

Results flagged for a closer look

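Of 105 enzyme and group combinations with 4 libraries each, 7 had a library far from the other 3 by Dixon's test, where chance flags about 1 in 20. In control libraries, Extl3 was lowest in control 36 at 202 CPM (others 224 to 227), Sulf2 was highest in control 36 at 196 CPM (155 to 156) and Hs3st1 was highest in control 19 at 31.2 CPM (18.9 to 20.3). In Veh libraries, Sulf1 was highest in Veh 6 at 30.1 CPM (5.35 to 5.88), Chsy3 was highest in Veh 6 at 15.2 CPM (12.5 to 12.9), B4galt7 was lowest in Veh 6 at 20.8 CPM (23.1 to 23.3) and Chst12 was highest in Veh 2 at 34.4 CPM (25.4 to 26.8). The log2 ratio of 4-O to 6-O chondroitin sulfotransferases was highest in ISP 14, at 1.79 against 1.56 to 1.58 in the other ISP libraries. Chst15, which held most of the 6-O sum, had 30.1 CPM in ISP 14 and 31.1 in ISP 18. Veh 6, which accounts for 3 of the flagged values, is also the library with 1706 CPM of choroid plexus and ependyma markers.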

How the results depend on the processing

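For ISP with Veh, 0 enzymes were called under each setting tried, while over all genes 72 were called without Veh 6, 31 without Veh 6 and ISP 18, 2 without ISP 12 and 402 by DESeq2. For Veh with control, where 1 enzyme was called, DESeq2's Wald test called 4, and 0 were called with all 12 libraries in 1 fit, at an adjusted p under 0.05 and without both Veh 6 and Veh 10. Leaving out 1 library gave 0 to 4. For ISP with control, where 5 were called, 1 was called at an adjusted p under 0.05, 2 with a log2 fold change beyond 0.5 and 0 without both ISP 14 and ISP 18, and leaving out 1 library gave 1 to 6. Over all genes, the count of 337 for Veh with control became 28 with all 12 libraries, 510 with no filter, 1109 by DESeq2, 18 at an adjusted p under 0.05, 162 with a log2 fold change beyond 0.5 and 0 without control 21. That of 1547 for ISP with control became 691 at an adjusted p under 0.05, 949 with a log2 fold change beyond 0.5 and 90 without ISP 14 and ISP 18. No enzyme named as called changed direction under any of these. No paired analysis was possible because the groups share no replicate numbers. The cause of the lost calls was not tested. Low counts limit Chst3 (19 reads in Veh 2), Chst7, Chst14 and Chst13.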
